A study of Rattus norvegicus with 6 samples.

Results

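Among the genes of the Notch pathway in hypoxic rat bone marrow mesenchymal stem cells, the target gene Hes1 was higher in cells overexpressing FNDC5, whereas the genes of the nuclear mediators, Rbpj and Maml1, were lower. The receptor gene Notch2 was lower by scaled counts but higher once a trend with gene length was taken out. The log2 fold change then went from -1.09 to -0.54 for Rbpj, from -0.95 to -0.23 for Maml1 and from 1.90 to 1.69 for Hes1. The set comprised 10 genes, namely the receptors Notch1, Notch2 and Notch3, the ligands Jag1, Jag2 and Dll1, the nuclear mediators Rbpj and Maml1, and the targets Hes1 and Hey1. Members were found by gene name, and each matched a single row of the 33508 genes in the count table. BMSCs-OE-FNDC5 were transduced with a lentivirus carrying rat FNDC5 and BMSCs-OE-NC with a blank lentivirus, on vectors carrying a GFP or luciferase tag, with 3 libraries of each. By the study's methods all cells came from the femurs and tibias of male Sprague–Dawley rats aged 2 months, were passaged 3 times and were transduced at a multiplicity of infection of 10 over 72 h. Both groups then spent 24 h under hypoxia/serum deprivation (H/SD), that is 1% O2, 94% N2 and 5% CO2 without glucose or serum, so no library shows cells outside H/SD. The labels call the libraries biological replicates without saying whether these were separate animals, cultures or transductions, and the p-values cover only the spread between these libraries.

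Notch signalling passes between neighbouring cells. A ligand of the Jagged or Delta-like family on one cell binds a Notch receptor on the next, ADAM proteases and then gamma-secretase cut the receptor, and the released intracellular domain enters the nucleus. There it joins the DNA-binding protein RBPJ and a Mastermind-like coactivator, and this complex switches on repressor genes of the Hes and Hey families. In marrow stroma the pathway is known for holding mesenchymal progenitors in an undifferentiated state and for its part in vessel walls, where Notch3 and Hey genes mark mural cells.

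Fndc5, the targeted gene, had 64195 to 65589 counts in BMSCs-OE-FNDC5 and 17 to 25 counts in BMSCs-OE-NC. Total counts were 16640635 to 17229490 in BMSCs-OE-FNDC5 and 17430287 to 17965722 in BMSCs-OE-NC, and TMM scaling factors (trimmed mean of M values) were 0.877 to 0.882 in BMSCs-OE-FNDC5 and 1.13 to 1.14 in BMSCs-OE-NC. Levels are given in CPM, which sets counts against the TMM-scaled total of each library. Log2 fold changes set BMSCs-OE-FNDC5 relative to BMSCs-OE-NC, with standard errors (SE) and adjusted p-values from edgeR's quasi-likelihood test over all 12104 genes tested. Changes also followed gene length across all genes, with a median log2 fold change of 0.65 in the shortest eighth of genes and -0.84 in the longest. A second fit took out the trend of each library with gene length, and its values are called length-adjusted. The median log2 fold change of all tested genes was -0.04 under TMM, 0.09 when length-adjusted and -0.41 when scaled by library size alone.

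Of the 10 genes, 7 had enough counts to be tested. Hes1 alone rose, where 36.9% of all genes tested did, and 4 fell (Notch2, Jag1, Rbpj and Maml1), where 38.8% of all genes tested did, though Notch2 turned to 0.31 when length-adjusted. At an absolute log2 fold change over 1 as well, Hes1 was higher (9.84% of all genes) and Jag1 and Rbpj were lower (17.5% of all genes). The libraries of the groups did not overlap for 5 of the 7, against 78.3% of all genes tested. Separation of the groups was thus no more frequent among the members than in the whole table, and counts over 7 genes are a description only. In the length-adjusted fit 3 members were higher (Hes1, Notch1 and Notch2) and 2 were lower (Rbpj and Maml1). In that fit 4925 of all 12104 genes tested were higher and 3730 lower.

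**Figure D1:**
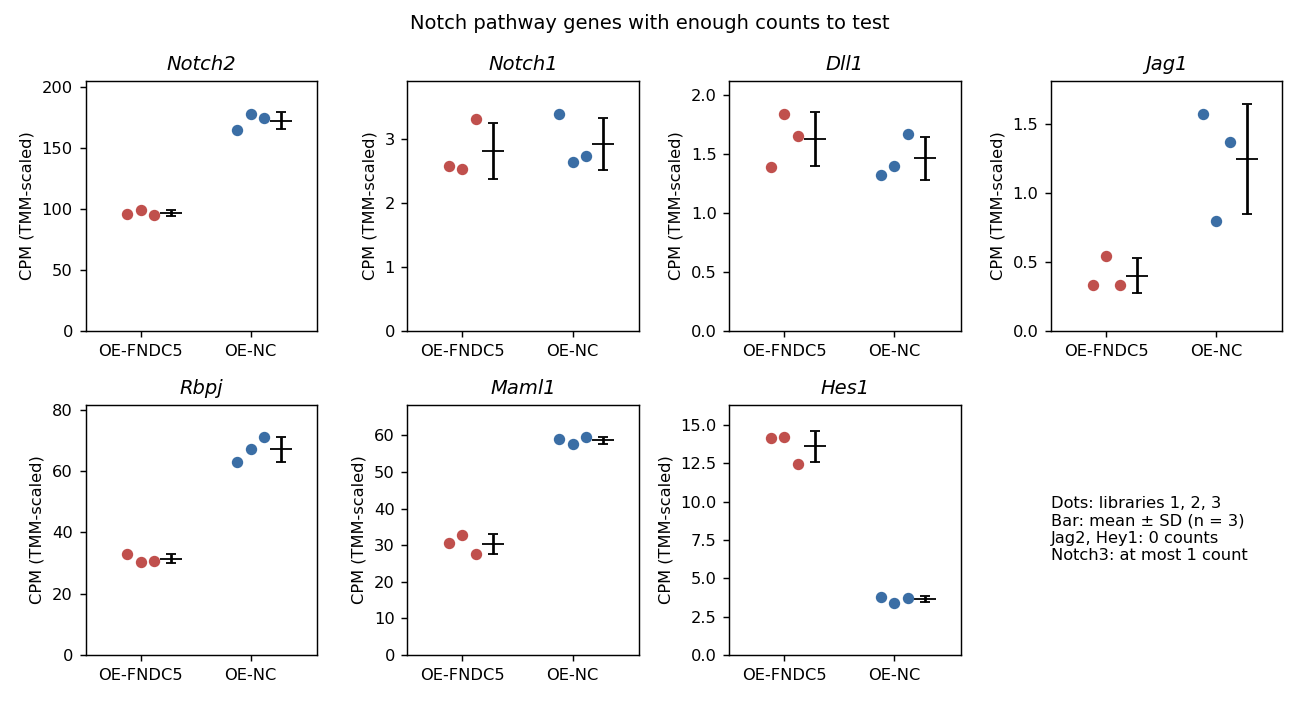
Level of the 7 tested members in each library, in TMM-scaled CPM, with BMSCs-OE-FNDC5 in red on the left of each panel and BMSCs-OE-NC in blue on the right. Dots are libraries and bars are mean ± SD (n = 3). Hes1 stands at 12.5 to 14.2 CPM in BMSCs-OE-FNDC5 and 3.39 to 3.78 CPM in BMSCs-OE-NC, Notch2, Jag1, Rbpj and Maml1 lie lower in BMSCs-OE-FNDC5 (Notch2 is higher, at a log2 fold change of 0.31, when length-adjusted), and Notch1 and Dll1 overlap.

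The promoters shown are those of Hes1, the member that rose, and of Notch2, the main receptor gene. Whether either sequence plays a part in this contrast was not tested. RefSeq promoters of build GRCr8, running from 250 bases before to 50 bases after the start site, were matched for 9 of the 10 members. The promoter of Hes1 (chr11:84212996-84213295, minus strand) is shown because it carries 2 copies of the core to which RBPJ binds, TGGGAA, in capitals. That of Notch2 (chr2:188299086-188299385, plus strand) is shown with its 5 GC boxes, GGGCGG, the kind of site bound by Sp1, a factor the study followed. Both read 5′ to 3′ along the gene.
Hes1: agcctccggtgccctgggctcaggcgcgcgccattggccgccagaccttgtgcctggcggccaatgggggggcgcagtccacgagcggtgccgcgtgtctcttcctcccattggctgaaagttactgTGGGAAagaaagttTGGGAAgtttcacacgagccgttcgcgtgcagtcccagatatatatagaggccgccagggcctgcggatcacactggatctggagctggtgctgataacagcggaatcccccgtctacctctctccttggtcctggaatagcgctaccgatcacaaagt
Notch2: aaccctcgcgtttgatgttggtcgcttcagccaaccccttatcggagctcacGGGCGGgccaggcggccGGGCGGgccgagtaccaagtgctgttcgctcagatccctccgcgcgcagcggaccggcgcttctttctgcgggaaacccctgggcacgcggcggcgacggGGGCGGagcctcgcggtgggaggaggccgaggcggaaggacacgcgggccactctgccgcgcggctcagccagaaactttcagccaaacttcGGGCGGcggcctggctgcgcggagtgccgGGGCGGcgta
In Hes1 the copies of the RBPJ core began 123 and 109 bases before the start site, on the same strand. Searched on both strands, TGGGAA occurred at least once in 25.7% of all 33469 promoters of this length and at least 2 times in 3.85%. It was present in the promoters of Hes1 (2 copies), Dll1 (2), Notch3 (1) and Rbpj (1 or 2, at 2 start sites), and had no match in those of Notch1, Notch2, Jag1, Jag2 and Maml1. GGGCGG occurred at least once in 33.1% of all promoters and at least 5 times in 2.34%. It had 5 copies in Notch2, 4 in Notch1, 4 in Notch3, 2 or 5 at the start sites of Jag2 and 1 in Maml1, and no copy in Hes1, Dll1 and Jag1. At Rbpj a single copy lay in 1 of the 2 start sites. By their letters, matches of the one motif cannot overlap those of the other, and each match is only a description of the sequence.

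Notch2 was by far the main receptor gene in both groups. It had 95.7, 99.6 and 94.9 CPM in BMSCs-OE-FNDC5, against 165, 178 and 175 CPM in BMSCs-OE-NC. The highest library of BMSCs-OE-FNDC5 was far under the lowest of BMSCs-OE-NC, and the log2 fold change was -0.84 by scaled counts but 0.31 when length-adjusted. The edgeR adjusted p was 5.0e-09 for the fall by scaled counts (SE 0.04) and 1.1e-05 for the length-adjusted rise. The gene is the longest of the set, at 11561 bases, and its change equalled the median of -0.84 in its eighth of genes by length. That eighth runs from 4723 to 29464 bases with a median length of 6026 bases, so its median is not the trend at the length of Notch2. In bulk RNA, fewer cells that express a gene and less RNA per cell cannot be told apart.

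Notch1, the receptor best known from blood and endothelium, was low. It had 2.58, 2.52 and 3.31 CPM in BMSCs-OE-FNDC5 and 3.39, 2.64 and 2.73 CPM in BMSCs-OE-NC, from 37 to 50 counts in BMSCs-OE-FNDC5 and 53 to 69 counts in BMSCs-OE-NC. The groups overlapped, and the log2 fold change of -0.06 (SE 0.21) did not pass the test (edgeR adjusted p = 0.81). When length-adjusted, Notch1, of 9526 bases, rose by 0.98 (edgeR adjusted p = 0.0016). Notch3, the receptor of mural cells, had 0, 0 and 1 count in BMSCs-OE-FNDC5 and 0 counts in each library of BMSCs-OE-NC, and was not tested. Per length, on the deposited FPKM values, Notch2 made up 96.8%, 97.0% and 95.8% of the summed level of the 3 receptors in BMSCs-OE-FNDC5, and 97.6%, 98.2% and 98.1% in BMSCs-OE-NC. Its mean share was 96.6% ± 0.636 in BMSCs-OE-FNDC5 and 98.0% ± 0.360 in BMSCs-OE-NC (SD, n = 3 each). The shares did not overlap, although an exact permutation test of 3 libraries against 3 cannot go below p = 0.1, the value reached here (two-sided, 0.125 adjusted over 5 shares).

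The ligand genes were all close to the limit of detection. Jag1, which encodes Jagged1, the ligand of marrow stroma and vessel walls, had 5, 8 and 5 counts in BMSCs-OE-FNDC5, against 32, 16 and 27 counts in BMSCs-OE-NC. These came to 0.331, 0.546 and 0.331 CPM in BMSCs-OE-FNDC5, against 1.57, 0.797 and 1.36 CPM in BMSCs-OE-NC, and the groups did not overlap. Jag1 fell, at -1.62 on the log2 scale (SE 0.43, edgeR adjusted p = 0.0057). It had entered the test only through its counts in BMSCs-OE-NC, so that a lower value in BMSCs-OE-FNDC5 was built into its selection. Its length-adjusted value was -0.89, which no longer passed (edgeR adjusted p = 0.093).

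Dll1, which encodes the ligand Delta-like 1, had 1.39, 1.84 and 1.66 CPM in BMSCs-OE-FNDC5 and 1.33, 1.40 and 1.67 CPM in BMSCs-OE-NC, from 21 to 27 counts in BMSCs-OE-FNDC5 and 27 to 33 counts in BMSCs-OE-NC. The groups overlapped and the log2 fold change of 0.15 (SE 0.26) did not pass (edgeR adjusted p = 0.60). Jag2, for Jagged2, had 0 counts in all 6 libraries. A count of 0 allows up to 3 counts, which comes to 0.198 to 0.205 CPM in the libraries of BMSCs-OE-FNDC5 and 0.147 to 0.152 CPM in those of BMSCs-OE-NC. These floors cover counting error only.

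The make-up of the ligand transcripts is given as a description, since Jag1 was tested only through its counts in BMSCs-OE-NC. Of the summed FPKM of Jag1, Jag2 and Dll1, Dll1 took 86.4%, 83.7% and 88.3% in BMSCs-OE-FNDC5, and 56.1%, 72.6% and 64.9% in BMSCs-OE-NC. Jag1 took the rest, 13.9% ± 2.36 (SD, n = 3) in BMSCs-OE-FNDC5 and 35.4% ± 8.26 (SD, n = 3) in BMSCs-OE-NC. The shares did not overlap between the groups. They rest on 5 to 32 counts of Jag1 per library.

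Both genes of the nuclear complex fell. Rbpj, the DNA-binding partner through which all mammalian Notch receptors act, had 33.1, 30.3 and 30.7 CPM in BMSCs-OE-FNDC5, against 62.9, 67.3 and 71.0 CPM in BMSCs-OE-NC. The groups were far apart, and Rbpj was at -1.09 on the log2 scale (SE 0.06, edgeR adjusted p = 1.7e-08). Rbpj was still lower when length-adjusted, at -0.54 (edgeR adjusted p = 7.6e-06). The table also lists relatives of Rbpj, of which Rbpjl2 had 0 to 6 counts in BMSCs-OE-FNDC5 and 5 to 10 counts in BMSCs-OE-NC, and Rbpjl had 30 to 44 counts in BMSCs-OE-FNDC5 and 22 to 41 counts in BMSCs-OE-NC. How reads shared by near copies were assigned is not stated, but Rbpj itself had 445 to 500 counts in BMSCs-OE-FNDC5 and 1281 to 1405 counts in BMSCs-OE-NC.

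Maml1, the coactivator that recruits acetyltransferases to the complex, had 30.6, 32.9 and 27.5 CPM in BMSCs-OE-FNDC5, against 59.0, 57.7 and 59.5 CPM in BMSCs-OE-NC. Every library of BMSCs-OE-FNDC5 lay below those of BMSCs-OE-NC, at -0.95 on the log2 scale (SE 0.06, edgeR adjusted p = 9.8e-08). The median in its eighth of genes by length was -0.84. When length-adjusted, Maml1 was lower by a smaller margin, -0.23 (edgeR adjusted p = 0.0072).

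Hes1, a repressor that Notch induces directly and that restrains differentiation, moved the other way. It had 14.2, 14.2 and 12.5 CPM in BMSCs-OE-FNDC5, against 3.78, 3.39 and 3.74 CPM in BMSCs-OE-NC. The libraries of BMSCs-OE-FNDC5 stood well above those of BMSCs-OE-NC, from 188 to 214 counts against 68 to 77 counts. Hes1 rose by 1.90 on the log2 scale (SE 0.13, edgeR adjusted p = 1.3e-07). The rise also passed the test when length-adjusted (1.69, edgeR adjusted p = 3.6e-07) and on library size alone (1.53, edgeR adjusted p = 8.5e-07), and the median change in its eighth of genes by length was 0.24. Hes1 is also induced by signals other than Notch, which these libraries do not separate. Hey1, the other target in the set, had 0 counts in all 6 libraries, with the same floors as Jag2, so no ratio of Hey1 to Hes1 was computed.

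**Figure D2:**
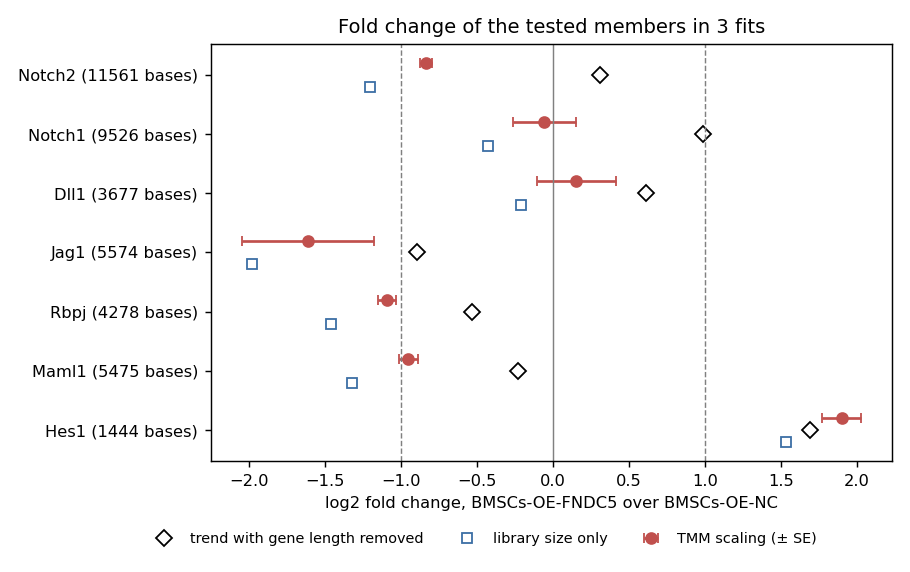
Log2 fold change of BMSCs-OE-FNDC5 relative to BMSCs-OE-NC for the 7 tested members, with gene length in bases beside each name. Filled circles give TMM scaling with the standard error, diamonds the length-adjusted fit and squares scaling by library size only, and dashed lines mark -1 and 1. Hes1 lies between 1.53 and 1.90 in all 3, while Notch2 passes from -0.84 to 0.31 between TMM scaling and the length fit.

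Compared per length on the FPKM scale, the order of the members differed between the groups. FPKM values keep the trend of changes with gene length, and the order was not compared in the length-adjusted fit. In that fit Hes1 was at 1.69 and Notch2 at 0.31 on the log2 scale. In BMSCs-OE-FNDC5 Hes1 stood first at 9.42 ± 0.680 FPKM (SD, n = 3), before Notch2 at 8.38 ± 0.218, Rbpj at 7.34 ± 0.338 and Maml1 at 5.54 ± 0.492 FPKM (SD, n = 3 each). In BMSCs-OE-NC Rbpj at 15.4 ± 0.891 and Notch2 at 14.7 ± 0.576 FPKM led, with ranges that overlapped, before Maml1 at 10.5 ± 0.146 and Hes1 at 2.48 ± 0.144 FPKM (SD, n = 3 each). In BMSCs-OE-FNDC5 the lowest library of Hes1, at 8.64 FPKM, was barely above the highest of Notch2, at 8.63 FPKM, so the ranges of these neighbours were only just apart. The low members came in 1 order in both groups. Dll1, Notch1 and Jag1 had 0.443 ± 0.0621, 0.295 ± 0.0465 and 0.0723 ± 0.0223 FPKM in BMSCs-OE-FNDC5, with ranges apart, and 0.391 ± 0.0470, 0.301 ± 0.0426 and 0.219 ± 0.0706 FPKM in BMSCs-OE-NC, where the ranges of Notch1 and Jag1 overlapped (SD, n = 3 each).

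Apart from Hes1, the tested members are long. Of the 7, 6 were in the longest 2 of 8 groups of genes by length, from 3532 bases up, where 20.7% and 11% of genes were higher and 56.8% and 73.4% were lower. Hes1, at 1444 bases, was in the group of 1435 to 1835 bases, where 49.3% were higher and 25.3% lower. Against the median of their own length group, Rbpj (-1.09 against -0.43), Jag1 (-1.62 against -0.84) and Maml1 (-0.95 against -0.84) were lower, Notch2 was level with it, and Hes1 (1.90 against 0.24), Notch1 (-0.06 against -0.84) and Dll1 (0.15 against -0.43) were higher. Genes in the longest group have a median length of 6026 bases, so its median is not the trend at the 11561 bases of Notch2. The part that length plays in each change was not tested beyond the length-adjusted fit.

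**Figure D3:**
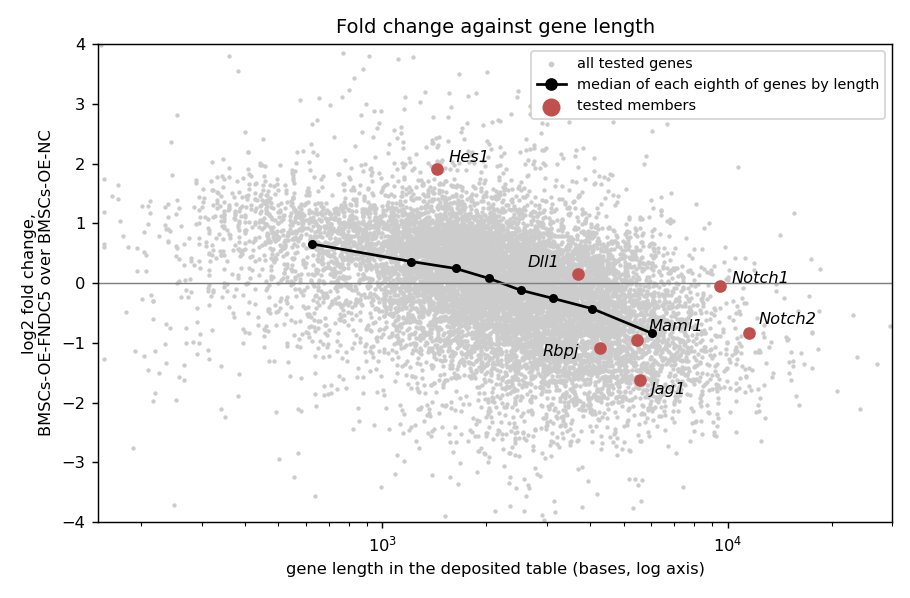
Log2 fold change of BMSCs-OE-FNDC5 relative to BMSCs-OE-NC against gene length in bases on a log axis, for all tested genes within the axes in grey and the 7 tested members in red. The black line joins the median of each eighth of genes, placed at its median length, and passes from 0.65 in the shortest to -0.84 in the longest, with Hes1 (1.90) far above it and Notch1 (-0.06) above it at the long end.

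In the count table, whose rat genome build is not named, the receptors are listed as Notch1 (ENSRNOG00000019322) on chromosome 3 from 3905453 to 3951025, Notch2 (ENSRNOG00000018835) on chromosome 2 from 200187179 to 200320215 and Notch3 (ENSRNOG00000004346) on chromosome 7 from 14138495 to 14189688. The mediators are Rbpj (ENSRNOG00000046327) on chromosome 14 from 59658935 to 59735450 and Maml1 (ENSRNOG00000003268) on chromosome 10 from 35765719 to 35800120. Hes1 (ENSRNOG00000001720) is on chromosome 11 from 74312806 to 74315248, and Hey1 (ENSRNOG00000011593) on chromosome 2 from 95320283 to 95322696. The ligands are Jag1 (ENSRNOG00000007443) on chromosome 3 from 130079361 to 130114770, Jag2 (ENSRNOG00000013927) on chromosome 6 from 137711155 to 137733026 and Dll1 (ENSRNOG00000059984) on chromosome 1 from 57318708 to 57327379. Only Notch3 and Jag2 overlap another gene of the table, and those neighbours had 0 counts.

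The wider pathway was described by 8 lists of 70 genes, of which 67 were in the table and 54 were tested, while Maml3, Ep300 and Kat2b were not analysed here. Of these 23 rose and 23 fell, where 36.9% of all genes tested rose and 38.8% fell, and 8 did not pass, with a median log2 fold change of -0.05 beside -0.04 over all genes tested. Length-adjusted, 25 were higher and 20 lower, where 4925 of all 12104 genes tested were higher and 3730 lower. On library size alone 10 were higher and 29 lower, where 2659 of all 12104 genes were higher and 6709 lower. The counts of each list are descriptions beside those shares, and in the longest eighth of all genes 73.4% were lower.

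Among genes that cut the receptor, 3 of 8 rose and 4 fell (median -0.23), where 36.9% of all genes tested rose and 38.8% fell. Adam10, the protease that makes the first cut of ligand-bound Notch, had 4.43, 5.32 and 4.24 CPM in BMSCs-OE-FNDC5, against 21.0, 18.9 and 20.9 CPM in BMSCs-OE-NC. It fell by 2.12 on the log2 scale (SE 0.12, edgeR adjusted p = 3.2e-08), and was at -1.64 when length-adjusted. Of genes for gamma-secretase subunits, Ncstn (-0.38) was lower and Aph1a (0.58), Aph1b (0.54) and Psenen (0.85) were higher. Psen2 (-0.09, edgeR adjusted p = 0.21) did not pass. These subunit genes were named after their values were seen. Ncstn no longer passed when length-adjusted (edgeR adjusted p = 0.087), nor Aph1b on library size alone (edgeR adjusted p = 0.11). Psen2 was at -0.46 on library size alone (edgeR adjusted p = 2.9e-05).

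Of 8 tested genes of ligand and receptor endocytosis and modification, 6 rose and 2 fell (median 0.47). Of all genes tested, 36.9% rose and 38.8% fell. On library size alone only 2 of the 8 were higher and 3 lower, where 2659 and 6709 of the 12104 genes tested were. Mib1, the ubiquitin ligase that lets ligands be pulled into the signalling cell, had 3.04, 1.64 and 3.18 CPM in BMSCs-OE-FNDC5, against 9.68, 13.3 and 11.3 CPM in BMSCs-OE-NC. Its fall of -2.12 (SE 0.23, edgeR adjusted p = 6.0e-06) was close to that of Adam10, and it was at -1.60 when length-adjusted. Mib2, the other Mib gene of the list, was named after its values were seen. It had 98.3, 109 and 103 CPM in BMSCs-OE-FNDC5, against 65.6, 68.5 and 71.5 CPM in BMSCs-OE-NC. Mib2 rose by 0.59 on the log2 scale, by 1.07 when length-adjusted and by 0.22 on library size alone. Of the other receptors and ligands 2 of 6 were tested. Dner, a Notch-binding protein described in neurons, was at 0.50 (edgeR adjusted p = 0.047), named after its value was seen, and not past the test on library size alone, and Notch4 (-0.37), also named after its value was seen, did not pass.

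Of 13 nuclear corepressors, 10 were lower and 3 higher (median -0.69), where 38.8% and 36.9% of all genes tested were. Length-adjusted, 7 were lower and 4 higher (median -0.19), where 3730 and 4925 of the 12104 genes tested were. Ncor1 (-1.33), which bridges to histone deacetylases, Tle1 (-1.29) and Tle4 (-1.73), Groucho proteins that bind Hes factors, and Ctbp2 (-1.07), a corepressor, fell in both fits. Ctbp2 had means of 7.98 CPM in BMSCs-OE-FNDC5 and 16.8 CPM in BMSCs-OE-NC. Ctbp1, named after its values were seen, had means of 453 CPM in BMSCs-OE-FNDC5 and 363 CPM in BMSCs-OE-NC. Its log2 fold change was 0.32, with 0.40 when length-adjusted and -0.05 on library size alone. Tle4, with 9 to 11 counts in BMSCs-OE-FNDC5 and 32 to 55 counts in BMSCs-OE-NC, had been tested only through its counts in BMSCs-OE-NC, so that its lower value was built in. Spen, which holds RBPJ in its repressive state, fell by 1.16 on the log2 scale (edgeR adjusted p = 2.1e-06), but stood at 0.01 when length-adjusted. Tle5, a short Groucho relative that lacks the repressor domain and counters the long ones, rose, with 354 ± 19.5 CPM (SD, n = 3) in BMSCs-OE-FNDC5, against 169 ± 4.95 CPM (SD, n = 3) in BMSCs-OE-NC, a log2 fold change of 1.07. Of 4 tested coactivators 3 fell and 1 rose (median -0.80), where 38.8% and 36.9% of all genes tested did. Length-adjusted, 2 coactivators were lower and 1 higher (median -0.20). The coactivators included Maml2 (-1.27), a second Mastermind-like gene, and Crebbp (-1.26), an acetyltransferase that did not pass when length-adjusted (-0.19, edgeR adjusted p = 0.21).

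Inhibitors and turnover genes were split, with 4 of 9 up, 3 down and 2 not passing (median 0.01). Of all genes tested, 36.9% rose and 38.8% fell. The ubiquitin ligase genes Itch (-1.72) and Fbxw7 (-1.04), whose products act on Notch and its intracellular domain, and Dtx3l (-1.48), of the Deltex family, fell in both fits. Nrarp, a feedback inhibitor and widely used Notch target named after its values were seen, had 1.52, 0.273 and 1.46 CPM in BMSCs-OE-FNDC5 and 1.03, 0.449 and 1.77 CPM in BMSCs-OE-NC. Those values overlapped (0.01 on the log2 scale, SE 0.58, edgeR adjusted p = 0.99).

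Other Hes and Hey genes gave few values. Hes2, Hey2 and Heyl had 0 counts, and Hes3 and Hes5 too few to be tested. Hes6, which in mouse counters Hes1, had 74.5, 67.4 and 67.3 CPM in BMSCs-OE-FNDC5, against 38.6, 41.3 and 38.9 CPM in BMSCs-OE-NC. It rose by 0.82 (SE 0.05, edgeR adjusted p = 9.6e-08), and by 0.60 when length-adjusted. Hes7 (-0.52, edgeR adjusted p = 0.14) did not pass, and was at -1.02 (edgeR adjusted p = 0.0098) when length-adjusted. Hes6 and Hes7 were named after their values were seen.

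Of 8 other genes reported as Notch targets in some tissues, 4 rose, 1 fell and 3 did not pass (median 0.17). Of all genes tested, 36.9% rose and 38.8% fell. Cdkn1a, a cell cycle inhibitor that p53 also induces, had 642 ± 17.1 CPM (SD, n = 3) in BMSCs-OE-FNDC5, against 103 ± 4.75 CPM (SD, n = 3) in BMSCs-OE-NC, a rise of 2.64 on the log2 scale (SE 0.04, edgeR adjusted p = 8.4e-13). Sox9, a chondrogenic factor, had 12.4, 13.2 and 18.9 CPM in BMSCs-OE-FNDC5, against 31.5, 34.1 and 28.7 CPM in BMSCs-OE-NC, and fell by 1.08 on the log2 scale. Both directions held when length-adjusted, at 2.63 and -0.67.

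**Figure D4:**
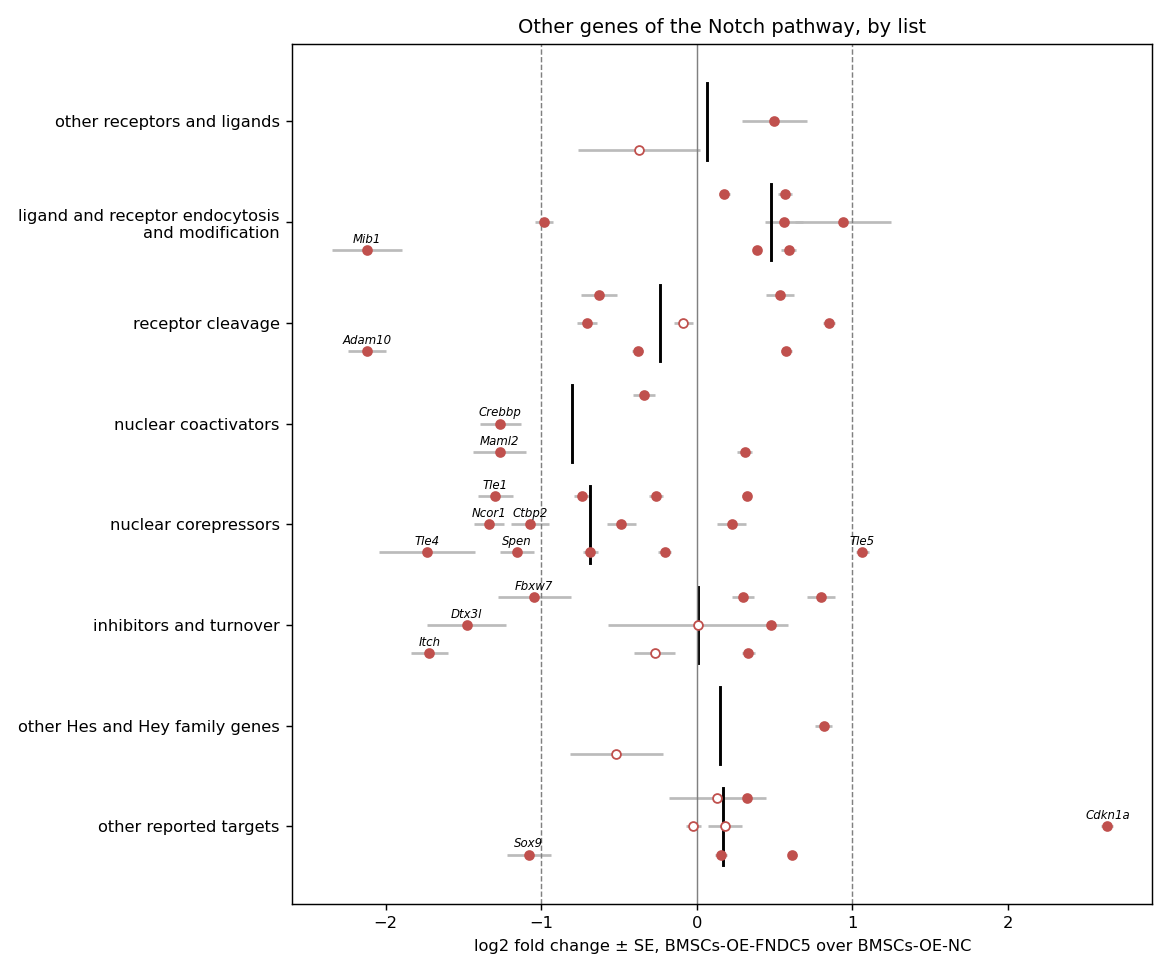
Log2 fold change of BMSCs-OE-FNDC5 relative to BMSCs-OE-NC, with standard error, for the 54 tested genes in 8 lists of the wider pathway. Filled points mark genes called at an adjusted p under 0.05 and open points the others, black bars are list medians and dashed lines mark -1 and 1. Corepressors (median -0.69) and coactivators (-0.80) lie mostly to the left, and Mib1 and Adam10 (both -2.12) lie farthest left. Length-adjusted medians, which are not drawn, were -0.19 for corepressors and -0.20 for coactivators.

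Markers of the labelled cell type were present in both groups, with counts for all 11 listed mesenchymal stromal genes. Lepr, which was not tested, had only 1 to 5 counts in BMSCs-OE-FNDC5 and 0 to 1 count in BMSCs-OE-NC. The summed level of the 11 genes was 2356 to 2425 CPM in BMSCs-OE-FNDC5 and 4124 to 4162 CPM in BMSCs-OE-NC. Of the 10 tested, 7 were lower and 3 higher, also when length-adjusted, where 38.8% and 36.9% of all genes tested were under TMM. Their median length was 3815.5 bases, and 56.8% of genes from 3532 to 4722 bases were lower. The summed level of mural markers moved the other way, at 4346 to 4423 CPM in BMSCs-OE-FNDC5 and 1428 to 1444 CPM in BMSCs-OE-NC, mostly from Des. Of the 6 mural markers tested, 4 were higher and 1 lower, and 5 were higher and 0 lower when length-adjusted. Rgs5, Kcnj8 and Abcc9 had 0 counts. Endothelial markers at 0 numbered 8 of the 11 present in the table, among them Cdh5, Kdr and Tie1, and the summed level of 90.6 to 94.0 CPM in BMSCs-OE-FNDC5 and 51.8 to 55.3 CPM in BMSCs-OE-NC was nearly all Egfl7. Macrophage and monocyte markers summed to 198 to 206 CPM in BMSCs-OE-FNDC5 and 98.2 to 103 CPM in BMSCs-OE-NC, nearly all Cd14, with Ptprc, Adgre1, Aif1, Cd163 and Mrc1 at 0, and 6 of 7 lymphocyte markers in the table had 0 counts. The part of these shifts in the changes of the Notch genes was not tested.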

How the data were processed

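RNA-seq of BMSCs-OE-FNDC5 and BMSCs-OE-NC, 3 libraries each as titled in the labels, was analysed from deposited tables. The count table holds whole-number counts per gene, made by the authors. The FPKM table holds values that the authors derived from the same counts, by gene length and 1 constant per library. The submitters' processing notes name HISAT2 2.1.0, HTSeq 0.6.0, Bowtie2 2.2.3, TopHat2, DESeq2 and CASAVA, with no roles, and give a mouse build and a retinal extraction, although the tables carry rat identifiers and the labels give bone marrow. The strand setting is not given in the sources used here.

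The test of the counts was that of edgeR 4.0.16, run under R 4.3.3 (filterByExpr, minimum count 10 and minimum total 15, TMM, glmQLFit and glmQLFTest, condition as the only term), with Benjamini-Hochberg adjustment over the 12104 of 33508 genes tested. Genes were called at an adjusted p under 0.05, with or without an absolute log2 fold change over 1. Standard errors follow from the log2 fold change and the F statistic. Total counts of 16640635 to 17965722 limit the precision of genes near the floor of 3 counts. Alternatives used RLE, upper-quartile or no scaling, no filter, at least 10 counts in every library, DESeq2 1.42.0, limma-voom (limma 3.58.1), a replicate block, a lowess trend with gene length (span 0.3) as an offset, limma on log2(FPKM + 1) or log2(FPKM + 0.1), and leaving out each library. Shares were compared in SciPy 1.17.1, and figures made in matplotlib 3.10.9 (Python 3.11.15).

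The members, lists and alternatives were chosen with earlier results of these data known. Named genes were all members and, in each list, up to 6 genes past both thresholds by size of change, and other listed genes were named after their values were seen. Promoters are from RefSeq (GRCr8). The ratio of Hey1 to Hes1 was left out because Hey1 had 0 counts. Chi-square per degree of freedom between libraries of a group was 3.85 to 7.95, so that none was a copy of another. Single values of 2 listed genes are not reported here, although the counts and medians of their lists include them.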

Additional observations from a re-analysis of the deposited data

How the results depend on the processing

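The direction of Hes1, Rbpj and Maml1 and their calls at an adjusted p under 0.05 held in all 11 alternatives and with each library left out, with log2 fold changes of 1.53 to 1.96 for Hes1, -1.46 to -0.54 for Rbpj and -1.32 to -0.23 for Maml1. Length-adjusted, 3 members were higher and 2 lower, against 1 and 4 with TMM, as Notch2 turned to 0.31 and Notch1 to 0.98, and 0 members were lower past the fold threshold, where Rbpj was at -0.54. With at least 10 counts in every library, which drops Jag1, 1 member was higher and 3 lower. The count lower past the fold threshold was 3 on upper-quartile scaling, 4 on library size only, 1 with at least 10 counts in every library, 0 on log2(FPKM + 1) and 1 on log2(FPKM + 0.1), against 2 with TMM. It was 2 to 3 with a library left out, the 3 coming without BMSCs-OE-FNDC5 replicate 2, when Maml1 reached -1.01. Other pathway genes that were higher numbered 10 on library size only, against 23 with TMM. Over all genes tested the numbers were 2659 and 4469. On library size only the log2 fold change turned to -0.19 for Pofut1, -0.063 for Kat2a, -0.049 for Ctbp1, -0.15 for Tle2, -0.039 for Numbl, -0.073 for Dtx2, -0.21 for Snai1 and -0.044 for Id3. Length-adjusted, it turned to 0.011 for Spen, 0.23 for Myc and -0.069 for Id3. Causes were not tested. With the replicate number as a block, 1 member was higher and 4 were lower, and 22 other pathway genes were higher and 23 lower. Deviations of libraries with the same number correlated at -0.01 to 0.02, so no shared deviation was seen. With 3 libraries in each group this cannot show whether the numbers mark a pairing. The shares of Notch1, Notch2, Jag1 and Dll1 kept their direction on counts and with each library left out. Depth limits Jag1, Dll1 and Notch1 most. The alternative of adding 0.5 to Hey1 and Hes1 was not run.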

Other observations

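The core of the hypoxia response element, ACGTG, was found on either strand in 19.3% of all RefSeq promoters of the same length. It had 3 matches in the promoter of Notch3, 2 in that of Maml1 and 1 at each start site of Rbpj, and no match in those of Hes1, Notch1, Notch2, Jag1, Jag2 and Dll1. Its matches can share letters with those of TGGGAA and GGGCGG. No comparison was made with these counts, since all libraries were kept under hypoxia.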
